A study of Mus musculus with 24 samples.

Results

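The comparison described is FPP-1746 against PBS at 6 h in T11 cells: the carrier peptide alone against the vehicle alone. It was chosen by its labels, as the deposited expression column of the FPP-1746 6 h group against that of the PBS 6 h group, and it rests on 6 of the 24 samples of the series, 3 in each group. T11 is a mouse mammary tumour line, and its transcriptome was measured by RNA-seq. The full design has 4 treatments (PBS, Omomyc, FPP-1746 and the fusion FPP-1746-Omomyc) at 3 h and at 6 h, with the peptides at 5 µM. Per the labels all samples have the genotype T11, come from a line that expresses luciferase, and were grown for 3 days before treatment in RPMI with 1% FBS, and every RNA had an integrity number of 10. The labels call the 3 samples of a group biological replicates and do not say whether they came from separate cultures. The treatment tag of the samples titled as the fusion at 6 h reads 3 h; they are called 6 h here after their titles and the column name, so every fusion value at 6 h has that doubt.

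Cell-penetrating peptides are short peptides that bind to the cell surface and carry an attached protein into the cell, by crossing the plasma membrane or by endocytosis followed by escape from endosomes. They are used to bring proteins such as Omomyc, a dominant-negative form of the transcription factor MYC, to targets inside tumour cells. A carrier without its cargo is the control that shows what the carrier itself does to the cells, at the membrane, in the endosomes and in gene expression.

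The deposited values are 1 group-average FPKM per gene and group (fragments per kilobase of transcript, scaled to library size, a level per length). They carry no replicate values, so values are given without an error, no test was possible, and no difference below has a replicate check. Differences are given as the log2 ratio of FPKM + 1, which understates the change of genes with low levels. Pairs of levels are at 6 h, PBS first and FPP-1746 second, with the log2 ratio in brackets, unless stated otherwise. A gene was called higher or lower past a fold of that ratio, and the comparison took in the 10262 genes whose 8 columns averaged 1 FPKM or more. At that minimum Unc13c, just inside, had a mean of 1.00 FPKM and Tcf7l1, just outside, 0.998 FPKM. The columns summed to 475030 FPKM for FPP-1746 and to 468758 FPKM for PBS, and 10125 and 10182 genes stood at 1 FPKM or more. Read from low values within a fixed search range, 1 FPKM of a 2000-base transcript stood for about 58.0 to 106 fragments with FPP-1746 and 63.2 to 110 with PBS, over the 3 replicates together. The range searched largely sets these limits, so they do not measure the depth.

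The cells carried the markers of a mesenchymal, claudin-low tumour line in both columns. Vim, which encodes the filament protein vimentin, stood at 3673 FPKM in PBS and 4066 FPKM with FPP-1746. The transcription factor gene Twist1 stood at 23.8 and 25.1 FPKM, Snai1 at 24.5 and 27.0 FPKM, and Zeb1 at 8.08 and 8.89 FPKM. The epithelial genes Epcam, Cldn3 and Krt18 were listed at 0 in all 8 columns, and Cdh1 stood at 0.0125 and 0.0327 FPKM. None of 13 epithelial and none of 8 endothelial markers entered the comparison. Their summed levels were 0.0604 and 0.126 FPKM (epithelial) and 0.961 and 0.861 FPKM (endothelial) in PBS and FPP-1746, with Kdr listed at 0. Of 14 leukocyte markers 2 entered, Cd14 (12.9 and 13.3 FPKM) and Cd68 (1.38 and 2.00 FPKM, a log2 ratio of 0.33). The leukocyte sum was 14.3 FPKM in PBS and 15.3 FPKM with FPP-1746, and Cd3e and Tyrobp were listed at 0. Of 6 adipocyte markers 1 entered, Fabp4, at 2.23 and 2.33 FPKM. In such bulk RNA, fewer cells of a type and less RNA per cell cannot be told apart.

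FPP-1746 left nearly all genes close to their PBS level at 6 h. Records of small RNAs made up most of the genes past 2-fold, so counts are given with and without these 140 records. With them, 23 genes (0.224%) were at least 2-fold higher and 34 (0.331%) at least 2-fold lower. Without them, 10122 genes remained, of which 2 (0.0198%) were higher and 3 (0.0296%) lower. At 1.5-fold the counts without small RNAs were 9 higher (0.0889%) and 13 lower (0.128%). At 1.25-fold, a limit added after it was seen how few genes passed the others, they were 97 higher (0.958%) and 122 lower (1.21%). Against the mean of both PBS columns, a reference that also takes in the 3 h level, 43 of these 97 genes and 61 of these 122 still passed 1.25-fold in the same direction, and 12 and 3 turned direction. That reference mixes in the change of PBS with time, so a call lost under it is not a test of the 6 h difference. The log2 ratios had a median of 0.0053, quartiles of -0.061 and 0.068 and a standard deviation over genes of 0.13.

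Calls were spread unevenly over expression levels. Among 1254 genes with a mean of 1 to 3 FPKM the standard deviation of the log2 ratios was 0.17, and 17 were higher and 51 lower past 1.25-fold. Among the 912 genes at 100 FPKM and over it was 0.11, with 15 higher and 5 lower. The lower calls thus lay mostly at low levels. Of the small RNA records, Snord91a (224 FPKM), Snora61 and Snord49a (201 FPKM each), Mir1932 (71.3 FPKM) and Mir3068 (39.8 FPKM) were listed at 0 in PBS. Snord87 (120 FPKM), Snord35b (72.6 FPKM), Mir5121 (59.6 FPKM), Snord1b (59.2 FPKM) and Mir1894 (54.1 FPKM) were at those levels in PBS and listed at 0 with FPP-1746. No fold is given for these, and the rest of the results leaves small RNA records out.

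**Figure D1:**
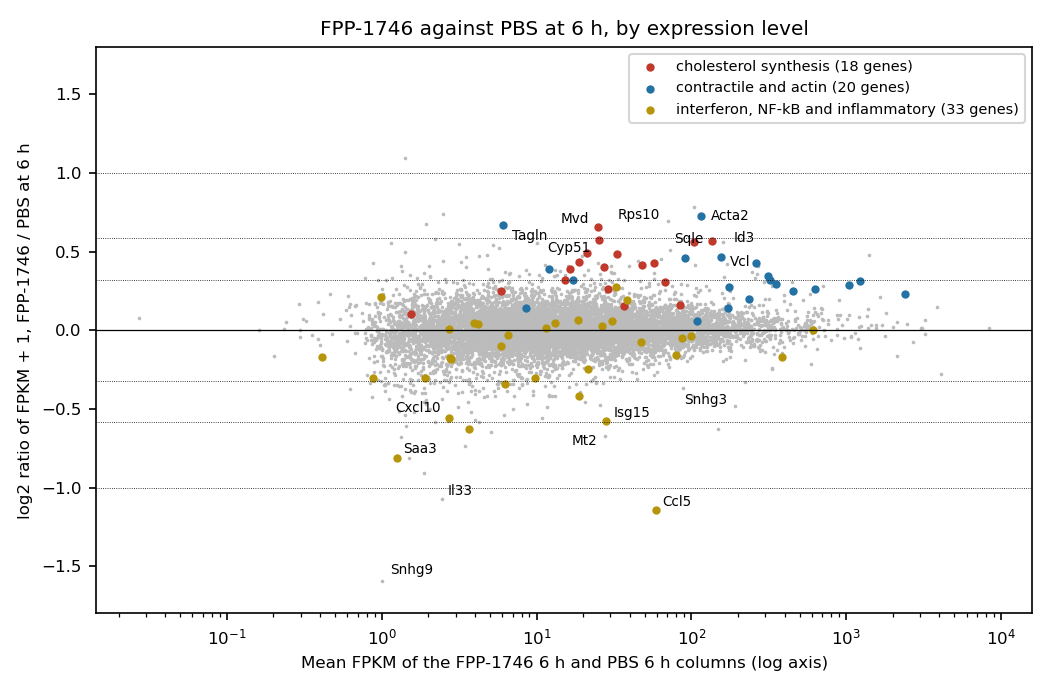
Log2 ratio of FPKM + 1 for FPP-1746 against PBS at 6 h (vertical axis) by the mean FPKM of both columns (log axis), 1 point per gene outside small RNA records. LOC100302567, listed at 0 in PBS, is not drawn. Dotted lines mark 1.25-fold, 1.5-fold and 2-fold. The cholesterol genes (red, 18 genes) and the contractile genes (blue, 20 genes) all lie above 0, and Ccl5 lies lowest among the coloured genes, at -1.15.

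The same counts are given for other pairs of averaged columns. Each pair also differs in time or treatment, so none measures the spread between columns alone. Between PBS at 6 h and PBS at 3 h, 890 genes were higher (8.79%) and 775 lower (7.66%) past 1.25-fold, and the standard deviation was 0.25. FPP-1746 at 3 h against PBS at 3 h gave 127 higher (1.25%) and 58 lower (0.573%), with a standard deviation of 0.12. Omomyc alone at 6 h, which shares the PBS column, gave 129 higher (1.27%) and 57 lower (0.563%), also with a standard deviation of 0.12. The spread of FPP-1746 against PBS at 6 h (0.13) lay near these and below that between the vehicle columns of the 2 times. The fusion at 6 h stood further from the same PBS column, with 2960 genes higher (29.2%) and 3036 lower (30%) and a standard deviation of 0.66.

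Of the 37 gene lists, those with 10 or more members entered included 3 with every member on 1 side of 0, where 52.6% of all genes had ratios above 0. Cholesterol synthesis genes and contractile genes lay above 0, and hosts of small nucleolar RNAs below it. Of 20 genes on the cholesterol list 18 entered, all 18 had ratios above 0, 11 passed 1.25-fold and 1 passed 1.5-fold. Their median was 0.41, beside 0.0053 over all genes. Of all genes 0.958% passed 1.25-fold higher and 0.0889% passed 1.5-fold higher. All 20 contractile and actin genes that entered, of 22, had ratios above 0, with 7 past 1.25-fold, 2 past 1.5-fold and a median of 0.30.

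**Figure D2:**
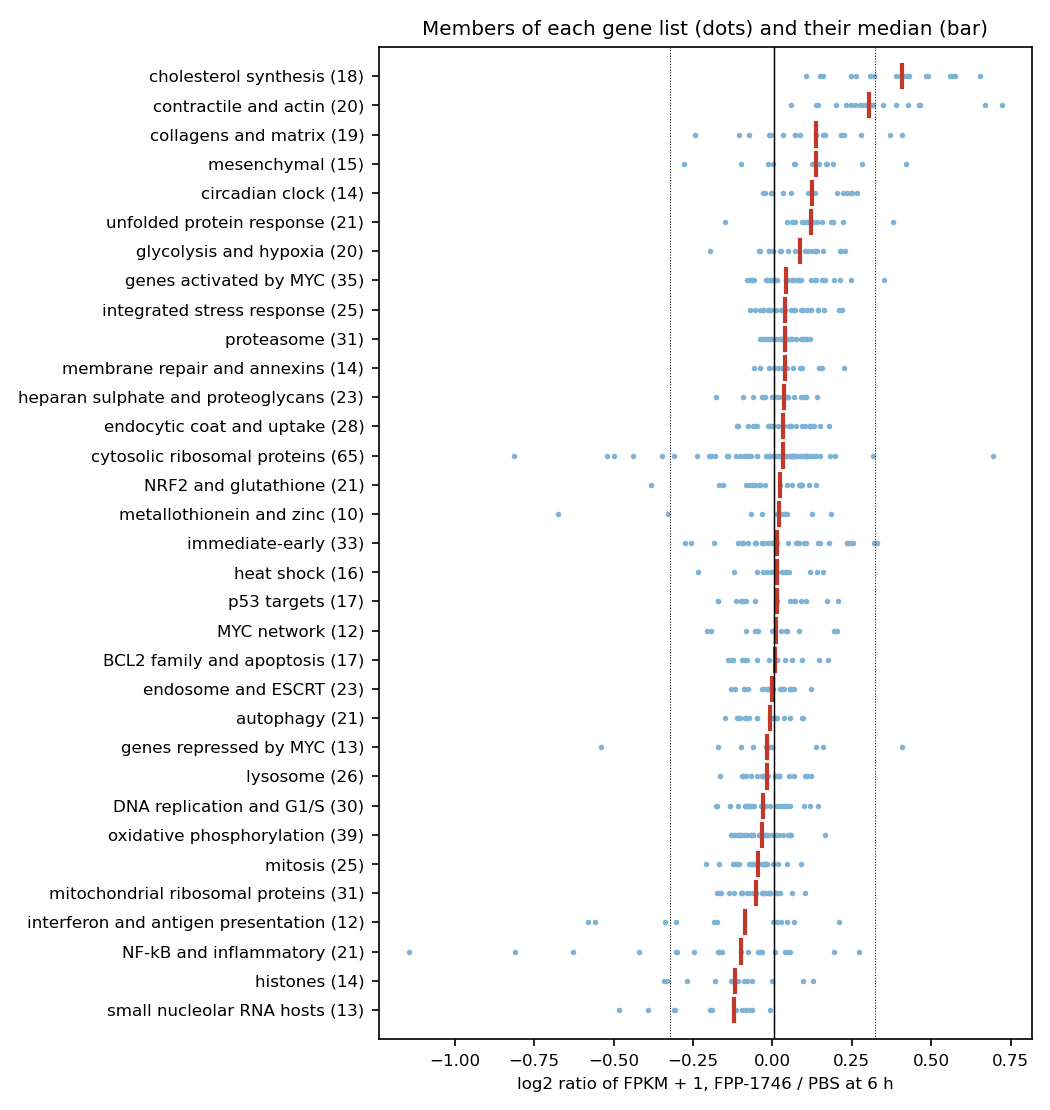
Log2 ratio of FPKM + 1, FPP-1746 against PBS at 6 h, for the members of each list with 5 or more genes entered (dots, number in brackets) with the list's median (red bar). The solid line is the median of all genes (0.0053) and the dotted lines mark 1.25-fold. Cholesterol synthesis (0.41) and contractile and actin genes (0.30) stand highest and small nucleolar RNA hosts (-0.12) lowest.

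The cholesterol pathway builds sterols from acetyl-CoA, and its genes are switched on together by the factor SREBP2 when membranes hold little sterol. Of the enzymes, Mvd, which decarboxylates mevalonate diphosphate (mm9 chromosome 8, 124957496 to 124967322), stood at 19.1 FPKM in PBS and 30.6 FPKM with FPP-1746, a log2 ratio of 0.65. Sqle, the squalene epoxidase gene, stood at 109 and 162 FPKM (0.57), Cyp51, a lanosterol demethylase, at 20.2 and 30.6 FPKM (0.58), and Sc4mol, a sterol methyl oxidase, at 83.9 and 124 FPKM (0.56). Other members, chosen after their values were seen, lay below these. Lss, which closes the sterol ring, stood at 15.9 and 21.9 FPKM (0.43).

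Insig1, which holds the SREBP complex back in the endoplasmic reticulum, stood at 17.6 and 25.1 FPKM (0.49). The members with ratios nearest 0 were Idi1 (1.45 and 1.64 FPKM, 0.11), Mvk (34.6 and 38.5 FPKM, 0.15) and the regulator Srebf2 (80.2 and 89.7 FPKM, 0.16). At 3 h the list's median was 0.11, 17 of 18 ratios were above 0, and none passed 1.25-fold, beside 1.25% of all genes higher. From 3 h to 6 h in PBS its median log2 ratio was -0.19. With the mean of both PBS columns as the reference its median at 6 h was 0.31, and 7 of the 11 calls held; Insig1 (0.21) and Lss (0.27) were among those lost.

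The cholesterol genes also stood above PBS with Omomyc alone. Omomyc without a carrier, at the same dose and time, had a list median of 0.38 against the same PBS column. Compared directly with Omomyc, which avoids the shared column, FPP-1746 had a median of -0.0032. The 6 h columns of Sqle read 109 (PBS), 169 (Omomyc), 162 (FPP-1746) and 169 FPKM (the fusion). For Mvd they read 19.1, 27.7, 30.6 and 19.6 FPKM in the same order, so the fusion stood near PBS there. Cyp51 read 20.2, 30.5, 30.6 and 29.8 FPKM, with PBS apart and the 3 peptides close together. A fall of the PBS column and a rise in each peptide column cannot be told apart here.

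**Figure D3:**
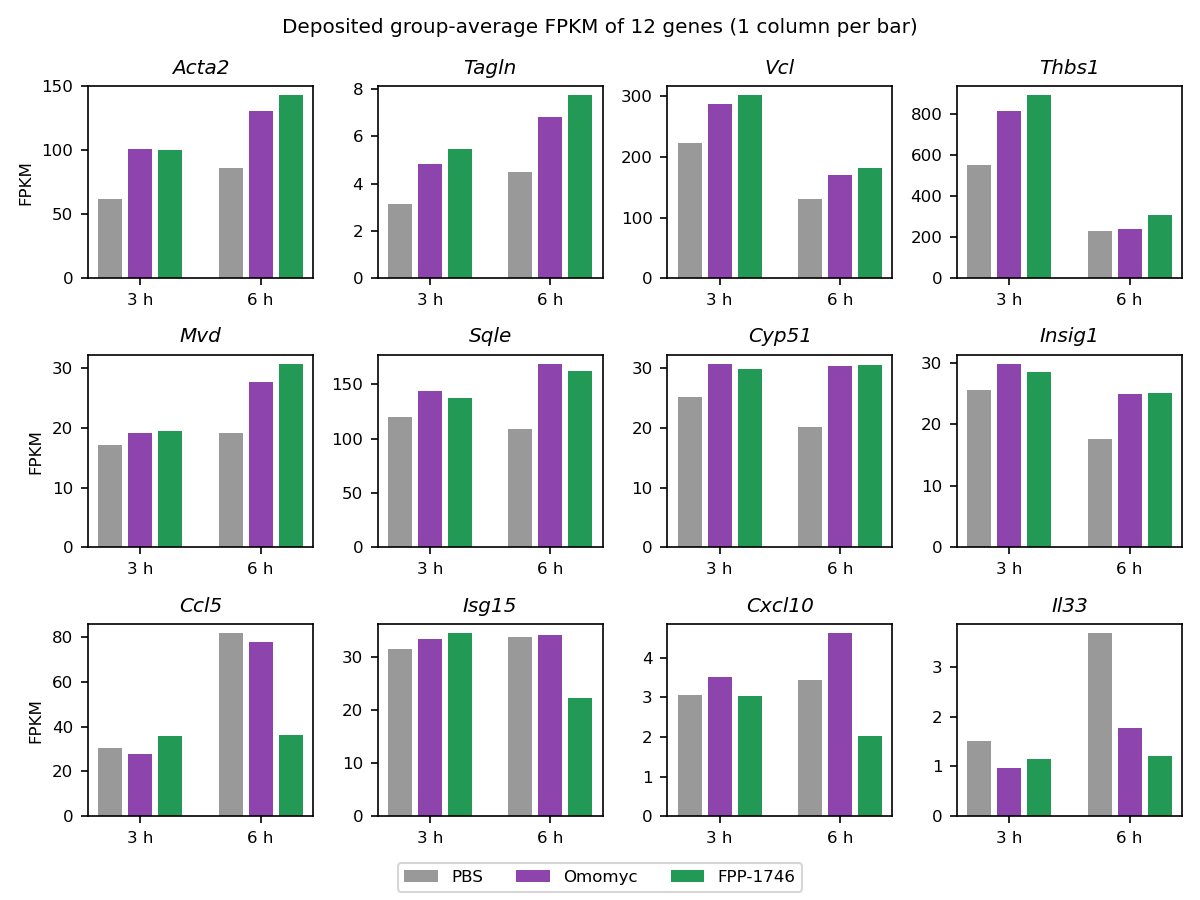
Deposited group-average FPKM of 12 genes (vertical axes from 0) in PBS (grey), Omomyc (purple) and FPP-1746 (green) at 3 h and 6 h; each bar is 1 averaged column and has no error bar. For Sqle at 6 h both peptides (169 and 162 FPKM) stand above PBS (109 FPKM), while for Ccl5 at 6 h FPP-1746 stands at 36.3 FPKM, Omomyc at 77.5 FPKM and PBS at 81.5 FPKM.

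The contractile and actin list holds smooth muscle and cytoskeletal genes, many of which are driven by serum response factor and its cofactors as actin filaments assemble. Acta2, which encodes smooth muscle actin (mm9 chromosome 19, 34315581 to 34329826), stood at 86.2 FPKM in PBS and 143 FPKM with FPP-1746 at 6 h (0.72). Tagln, the actin-binding transgelin gene, stood at 4.50 and 7.74 FPKM (0.67), although its locus in the table is shared with another gene. Both had passed 1.5-fold at 3 h as well, from 62.2 to 101 FPKM for Acta2 and from 3.12 to 5.48 FPKM for Tagln.

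Other genes on the same list also passed 1.25-fold. Vcl, the focal adhesion protein vinculin, stood at 131 and 181 FPKM (0.46), and Cald1, the actin regulator caldesmon, at 222 and 298 FPKM (0.43). Cald1 was chosen after its values were seen, as were Actg2 (10.3 and 13.8 FPKM, 0.39) and Cnn2 (274 and 349 FPKM, 0.35). Of the members that missed 1.25-fold, also chosen after their values were seen, Actb stood at 2200 and 2584 FPKM (0.23) and Tpm2 at 106 and 111 FPKM (0.058), the member nearest 0. Tmsb4x, the actin-sequestering thymosin gene, is on no list, was chosen after its value was seen, and stood at 1167 and 1628 FPKM (0.48).

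At 3 h the contractile list looked much the same, with 20 of 20 ratios above 0, 7 past 1.25-fold and a median of 0.28. Over all genes at 3 h 1.25% passed 1.25-fold higher. The summed level of the 22 listed genes at 3 h was 8172 FPKM in PBS and 9682 FPKM with FPP-1746. Omomyc alone stood nearly as high, at 9615 FPKM, and the fusion lower, at 5622 FPKM. These 3 h values come from other samples than the 6 h values. At 6 h the list's median was 0.20 with Omomyc alone and -0.65 with the fusion, both against the shared PBS column, and 0.13 for FPP-1746 directly against Omomyc. Acta2 at 6 h read 131 FPKM with Omomyc and 13.5 FPKM with the fusion, so the carrier column was the highest of the 4 and the fusion column the lowest. The list's median was 0.29 after quantile normalisation and 0.30 after median-ratio scaling. Against the mean of both PBS columns it was 0.25 and 5 of the 7 calls at 6 h held. Those lost were Vcl, at 0.035, and Cnn2, at 0.23.

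RefSeq promoters (GRCm38.p6, the 250 bases before each gene's start) are shown for 2 contractile genes because they hold the CArG box, the element that serum response factor binds. It was searched on both strands and occurs in 1.47% of 32851 promoters in the table. Of the 20 contractile genes that entered, 16 matched a promoter and 4 held the box: Actg1, Cnn2, Myl9 and Vcl. The capitals mark the box, at 218 to 227 bases before the start in Vcl (chr14:20929148-20929397, plus strand) and at 47 to 56 bases before it in Cnn2 (chr10:79988350-79988599, plus strand).
Vcl: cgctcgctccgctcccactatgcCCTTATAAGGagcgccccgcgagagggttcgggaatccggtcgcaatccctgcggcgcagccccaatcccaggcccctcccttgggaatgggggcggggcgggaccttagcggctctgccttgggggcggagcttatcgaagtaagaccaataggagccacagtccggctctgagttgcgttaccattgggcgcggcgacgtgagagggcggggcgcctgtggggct
Cnn2: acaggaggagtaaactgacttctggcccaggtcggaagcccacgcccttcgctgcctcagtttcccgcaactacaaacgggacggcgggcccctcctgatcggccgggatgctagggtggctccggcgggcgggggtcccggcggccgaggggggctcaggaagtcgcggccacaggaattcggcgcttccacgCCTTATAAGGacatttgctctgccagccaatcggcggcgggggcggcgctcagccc
A match is a run of letters and not a measured binding site. The sterol element TCACNCCAC, searched the same way, occurs in 1.05% of all promoters and in 0 of 11 matched promoters of the 18 cholesterol genes, which says only that these letters are not in these windows.

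Secreted and matrix genes were also among the highest. Plau, which encodes the protease urokinase, stood at 2.37 and 3.92 FPKM (0.55), and at 3 h at 5.45 and 8.36 FPKM. Against the mean of both PBS columns, which takes in the higher 3 h level, its 6 h ratio was 0.0036 and did not pass 1.25-fold.

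Thbs1, the matrix glycoprotein thrombospondin 1, stood at 231 and 307 FPKM (0.41), Cyr61, a matrix-bound target of YAP, at 229 and 289 FPKM (0.33), and Fn1, fibronectin, at 145 and 195 FPKM (0.42). Thbs1 and Cyr61 turned direction against the mean of both PBS columns, to -0.35 and -0.13. Their PBS level was higher at 3 h, at 551 FPKM for Thbs1 and 404 FPKM for Cyr61. Of 19 collagen and matrix genes entered, 14 had ratios above 0, 2 passed 1.25-fold, Col6a3 (13.6 and 18.3 FPKM, 0.41) and Tnc (26.3 and 34.3 FPKM, 0.37), and the median was 0.14. Neither passed against the mean of both PBS columns, at 0.18 and 0.32. Over all genes 52.6% had ratios above 0 and 0.958% passed 1.25-fold higher. Of 15 mesenchymal genes 12 were above 0, with Fn1 past 1.25-fold and a median of 0.14. S100a4, a calcium-binding protein of motile cells, went the other way within that list, from 4483 to 3700 FPKM (-0.28).

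The remaining genes with the highest ratios had mixed roles. Id3, an inhibitor of helix-loop-helix factors, stood at 129 and 191 FPKM (0.56), Fhl1, a LIM-domain protein, at 60.0 and 86.0 FPKM (0.51), and Adamts1, a matrix protease, at 8.01 and 12.3 FPKM (0.56). Omomyc gave 140 FPKM for Id3 and 70.2 FPKM for Fhl1, so of the PBS, Omomyc and FPP-1746 columns at 6 h FPP-1746 was highest for both. Lsm5, an RNA-processing protein, stood at 1.60 and 3.34 FPKM (0.74), Rnaset2b at 1.26 and 2.60 FPKM (0.67, but 0.17 against the mean of both PBS columns), Has2as at 1.57 and 2.83 FPKM (0.58) and Ramp3 at 0.747 and 1.56 FPKM (0.55). These 4 are low, and Has2as is antisense to another gene while strand use in counting is not given.

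Both genes past 2-fold higher fall outside the naming rule, were chosen after their values were seen, and have loci shared with other genes. LOC100302567 was listed at 0 in PBS at both times and stood at 25.8 FPKM with FPP-1746 at 6 h and 11.5 FPKM at 3 h, beside 14.7 FPKM with Omomyc at 6 h. The gene 1700088E04Rik stood at 0.544 and 2.30 FPKM, a log2 ratio of 1.10.

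Chemokine and innate immune genes were among the lowest. Of 21 NF-kB and inflammatory genes entered, of 29, 15 had ratios below 0, 4 passed 1.25-fold lower, 3 passed 1.5-fold, 1 passed 2-fold, none passed 1.25-fold higher, and the median was -0.098. Over all genes 47.4% had ratios below 0, and 1.21%, 0.128% and 0.0296% passed lower at 1.25-fold, 1.5-fold and 2-fold. The share higher past 1.25-fold was 0.958%, so none higher among 21 genes lies near that share. Ccl5, a chemokine that attracts T cells (mm9 chromosome 11, 83339281 to 83344020), stood at 81.5 FPKM in PBS and 36.3 FPKM with FPP-1746 (-1.15). In PBS it was 30.3 FPKM at 3 h and 81.5 FPKM at 6 h, while with FPP-1746 it was 35.6 and 36.3 FPKM. Omomyc (27.7 and 77.5 FPKM) showed the higher 6 h level too, and the fusion stood at 54.3 and 74.6 FPKM. At 6 h the other 3 columns thus lay close together and the FPP-1746 column lay below them. Against the mean of both PBS columns the ratio was -0.61, which no longer passes 2-fold.

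The other inflammatory genes past 1.5-fold were low in level. Saa3, an acute-phase protein, stood at 1.87 and 0.638 FPKM (-0.81), and Lcn2, the siderophore-binding lipocalin 2, at 4.68 and 2.68 FPKM (-0.63). Cxcl5, a neutrophil chemokine chosen after its value was seen, passed 1.25-fold at 21.6 and 15.9 FPKM (-0.42). Il33, an alarmin cytokine on no list, stood at 3.67 and 1.22 FPKM (-1.07), but Omomyc left it at 1.76 FPKM and both PBS and FPP-1746 were low at 3 h (1.52 and 1.16 FPKM). The ratio of Il33 was -0.70 against the mean of both PBS columns and -0.48 with a pseudocount of 5 FPKM. The list's core signalling genes lay near 0: Rela stood at 30.2 and 31.5 FPKM (0.056), Nfkb1 at 88.2 and 85.3 FPKM (-0.047) and the inhibitor Nfkbia at 48.8 and 46.2 FPKM (-0.077), all 3 chosen after their values were seen.

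Of 29 interferon and antigen presentation genes only 12 entered, and 6 of these had ratios below 0. The 3 that passed 1.25-fold lower were Isg15, a ubiquitin-like modifier (mm9 chromosome 4, 155573533 to 155574927), at 33.7 and 22.2 FPKM (-0.58), Cxcl10, an interferon-induced chemokine, at 3.44 and 2.02 FPKM (-0.56), and Ifi35 at 7.16 and 5.45 FPKM (-0.34). None passed higher. For comparison, 47.4% of all genes had ratios below 0, and 1.21% passed 1.25-fold lower and 0.958% higher. The 6 of 12 below 0 and the lack of higher calls thus lie near the shares over all genes. The list's median was -0.085, and 0.0033 when a mean of at least 5 FPKM was required. At 3 h FPP-1746 stood at 34.5 FPKM for Isg15 (PBS 31.4) and at 3.02 FPKM for Cxcl10 (PBS 3.05). At 6 h Omomyc stood at 34.0 FPKM for Isg15 and 4.62 FPKM for Cxcl10, so the carrier column at 6 h was the lowest of these for both. The table gives Cxcl10 a locus shared with another gene.

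The promoters of both are shown because they hold GAAA repeated after a gap of 2 bases, the core of the interferon-stimulated response element. The repeat was searched on both strands, overlapping matches included, and is found in 2.98% of all promoters. Of the 12 interferon genes that entered, 11 matched a promoter and 5 held it: B2m, Bst2, Cxcl10, Isg15 and Stat2. The capitals mark the matches in Isg15 (chr4:156200819-156201068, minus strand, 3 overlapping matches) and in Cxcl10 (chr5:92348890-92349139, minus strand, 204 to 213 bases before the start).
Isg15: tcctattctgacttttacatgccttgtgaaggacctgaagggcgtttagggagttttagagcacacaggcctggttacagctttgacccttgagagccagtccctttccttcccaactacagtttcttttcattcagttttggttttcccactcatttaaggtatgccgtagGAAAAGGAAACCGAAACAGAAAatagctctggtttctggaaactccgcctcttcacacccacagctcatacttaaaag
Cxcl10: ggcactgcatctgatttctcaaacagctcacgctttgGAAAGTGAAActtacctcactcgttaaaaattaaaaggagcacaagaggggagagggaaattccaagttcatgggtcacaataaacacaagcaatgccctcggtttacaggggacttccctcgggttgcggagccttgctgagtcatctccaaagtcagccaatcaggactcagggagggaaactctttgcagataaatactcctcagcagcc
The genes B2m and Bst2 hold the same letters and stood near PBS, at 609 and 610 FPKM (0.0033) and at 26.1 and 26.6 FPKM (0.028).

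Metal-binding and other genes were also lower. Mt2, a metallothionein that buffers zinc and copper, stood at 34.5 and 21.2 FPKM (-0.67), and Mt1 at 246 and 196 FPKM (-0.33, and -0.24 against the mean of both PBS columns, which does not pass 1.25-fold). They were the 2 of 10 metallothionein and zinc genes past 1.25-fold, the list's median was 0.021, and 1 of them passed 1.5-fold. Over all genes 1.21% passed 1.25-fold lower and 0.128% passed 1.5-fold lower. In PBS Mt2 was 20.2 FPKM at 3 h, so its FPP-1746 level at 6 h lay near that earlier value. Rn45s, the ribosomal RNA precursor, stood at 181 and 117 FPKM (-0.63) and at 3 h at 138 and 96.2 FPKM. How ribosomal RNA was removed from the libraries is not given in the sources used here.

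Lower genes at a mean of at least 10 FPKM were Tppp3, a tubulin-binding protein, at 13.1 and 8.61 FPKM (-0.56), Cirbp, the cold-inducible RNA-binding protein, at 13.8 and 9.52 FPKM (-0.49), Mgp, the matrix Gla protein, at 29.8 and 21.2 FPKM (-0.47), and Cbr2 at 24.0 and 17.2 FPKM (-0.46). Of these, Cirbp (-0.31), Mgp (-0.24) and Cbr2 (-0.22) did not pass 1.25-fold against the mean of both PBS columns. At lower levels, Ifitm6 stood at 4.58 and 2.34 FPKM (-0.74), Cd74, the invariant chain of MHC class II, at 6.44 and 3.74 FPKM (-0.65), Arhgdib at 4.99 and 3.04 FPKM (-0.57), and Rdm1 at 1.88 and 0.796 FPKM (-0.68). Cd74 and Arhgdib are known from leukocytes. Of the 14 leukocyte markers, the 2 that entered lay above 0 (Cd14 0.044 and Cd68 0.33), the whole list summed to 14.3 FPKM in PBS and 15.3 FPKM with FPP-1746, and Cd3e and Tyrobp were listed at 0. The part of such cells in these ratios was not tested.

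Transcripts that host small nucleolar RNAs in their introns lay lower as a group. All 13 that entered had ratios below 0, 2 passed 1.25-fold, Snhg3 (224 and 160 FPKM, -0.48) and Snhg4 (21.9 and 16.5 FPKM, -0.39), and the median was -0.12. Over all genes at 6 h 47.4% had ratios below 0 and 1.21% passed 1.25-fold lower. At 3 h 12 of the 13 hosts were below 0 with a median of -0.097, and Omomyc at 6 h had a median of -0.11. Snhg9, which is on the same theme but on no list, stood at 2.01 FPKM in PBS and was listed at 0 in the columns of all 3 peptides at 6 h. Most of these host genes share a locus in the table with another record.

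Genes of the path a carrier takes into the cell stayed close to PBS, as nearly all genes did. Over all genes 0.958% were at least 1.25-fold higher and 1.21% lower, so short lists would hold few or no calls. No member of 6 lists passed 1.25-fold in either direction: 23 genes of heparan sulphate and proteoglycans (median 0.038), 28 of the endocytic coat and uptake (0.034), 23 of the endosome and ESCRT (-0.00070), 26 of the lysosome (-0.017), 21 of autophagy (-0.0072) and 14 of membrane repair and annexins (0.039). The members farthest from 0 were Anxa3, an annexin, at 368 and 430 FPKM (0.22), Picalm, a clathrin adaptor, at 39.3 and 44.7 FPKM (0.18), and B3gat3, which builds the heparan sulphate linker, at 19.6 and 17.2 FPKM (-0.18). Npc2, the lysosomal cholesterol carrier, stood at 106 and 94.6 FPKM (-0.16). With no replicate values, smaller differences in these genes were not detectable.

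Stress pathway calls are set beside the shares past 1.25-fold over all genes, 0.958% higher and 1.21% lower. Of 21 unfolded protein response genes 20 had ratios above 0 with a median of 0.12, and 1 passed 1.25-fold: Xbp1, the transcription factor spliced by IRE1, at 18.5 and 24.4 FPKM (0.38, and 0.17 against the mean of both PBS columns). Hspa5, the main chaperone of the endoplasmic reticulum, stood at 493 and 562 FPKM (0.19) and was chosen after its value was seen. None of 25 integrated stress response genes (median 0.040), 16 heat-shock genes (0.013), 17 p53 targets (0.013) or 17 BCL2 family and apoptosis genes (0.0094) passed 1.25-fold. Ddit4 (21.9 and 25.6 FPKM, 0.22), Cryab (57.0 and 48.3 FPKM, -0.23), Phlda3 (50.6 and 58.5 FPKM, 0.21) and Casp9 (3.25 and 3.79 FPKM, 0.17) were farthest from 0 in these. Among 21 NRF2 and glutathione genes (median 0.025) 1 passed lower, Nqo1, a quinone reductase, at 10.8 and 8.07 FPKM (-0.38, and -0.24 against the mean of both PBS columns).

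Immediate-early genes answer growth factors and membrane signals within minutes. Of 33 entered 1 passed 1.25-fold higher at 6 h, Cyr61, beside 0.958% of all genes, and the median was 0.014. Jund stood just short of it at 32.7 and 41.1 FPKM (0.32), and Egr1 was lowest at 1.97 and 1.45 FPKM (-0.28). At 3 h 5 of the 33 had passed higher, beside 1.25% of all genes, and the median was 0.13. From 3 h to 6 h in PBS its median log2 ratio was -0.33.

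MYC, the target of the cargo, and its network were near the PBS column of 6 h with the carrier alone. Myc stood at 106 and 109 FPKM (0.045) and its partner Max at 44.4 and 47.1 FPKM (0.082). None of 12 network genes passed 1.25-fold (median 0.013), with Mycbp at 15.9 and 13.6 FPKM (-0.20) and the MAX-binding Mga at 4.40 and 5.22 FPKM (0.20) farthest from 0. At the shares over all genes past 1.25-fold, 0.958% higher and 1.21% lower, lists this short would hold few or no calls. Against the mean of both PBS columns Myc (-0.29), Max (-0.11) and the network median (-0.077) turned to below 0. Of 35 genes activated by MYC (median 0.042) 1 passed higher, Fbl, the nucleolar methyltransferase fibrillarin, at 17.8 and 23.0 FPKM (0.35, and 0.27 against the mean of both PBS columns). Of 13 genes repressed by MYC (median -0.017) Thbs1 passed higher and Ndrg2, at 1.87 and 0.973 FPKM (-0.54), lower.

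Growth and metabolism lists are set beside the same shares over all genes, 0.958% higher and 1.21% lower past 1.25-fold. At those shares short lists would hold few or no calls. None of 25 mitosis genes (median -0.045), 30 DNA replication genes (-0.030), 39 oxidative phosphorylation genes (-0.034), 31 mitochondrial ribosomal protein genes (-0.052), 31 proteasome genes (0.039), 20 glycolysis and hypoxia genes (0.087) or 14 circadian clock genes (0.12) passed 1.25-fold. Below 0 were 21 of 25 mitosis, 19 of 30 DNA replication, 30 of 39 oxidative phosphorylation and 26 of 31 mitochondrial ribosomal genes, beside 47.4% of all genes. Above 0 were 24 of 31 proteasome, 15 of 20 glycolysis and hypoxia and 10 of 14 clock genes, beside 52.6% of all genes. Of 14 histone genes (median -0.12) 2 passed lower, Hist1h2bc (23.4 and 18.3 FPKM, -0.34) and Hist2h2be (2.54 and 1.81 FPKM, -0.33), both at -0.24 against the mean of both PBS columns, and Hist1h2ba, on no list, stood at 2.74 and 0.996 FPKM (-0.91). Of 65 cytosolic ribosomal protein genes (median 0.033) 1 passed higher and 5 lower. Rps10 stood at 54.0 and 87.9 FPKM (0.69), Rps29 at 2.18 and 0.808 FPKM (-0.81) and Rpl12 at 2.08 and 1.15 FPKM (-0.52). Ribosomal protein genes have many near-identical copies in the genome, so these levels are uncertain.

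Part of the pattern was seen in the 3 h samples, which share no column with the 6 h comparison. Over 10122 genes the log2 ratios at 6 h and at 3 h had a Pearson correlation of 0.35 and a Spearman correlation of 0.26, and 0.29 and 0.26 without the 2 largest ratios at 6 h. The points are genes, which are not independent, and transcript length and overall level are common to both times. Among the 6217 genes that averaged 10 FPKM or more the values were 0.40 and 0.34. Past 1.25-fold higher were 0.958% of all genes at 6 h and 1.25% at 3 h. Of these genes, 24 were shared, 24.7% of those at 6 h and 18.9% of those at 3 h. They include Acta2, Tagln, Vcl, Plau, Fn1, Thbs1, Itga5 (an integrin, chosen after its value was seen) and Tnc. With the mean of both PBS columns as the 6 h reference, Vcl, Plau, Thbs1, Tnc and Itga5 (0.14) did not keep the 6 h call. Past 1.25-fold lower were 1.21% of all genes at 6 h and 0.573% at 3 h. Of these genes, 10 were shared, 8.20% of those at 6 h and 17.2% of those at 3 h, among them Cxcl5, Rn45s, Rdm1 and Rpl12.

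Over all genes at 3 h, 53% of ratios were above 0 and 47.0% below. Of the 97 genes higher at 6 h, 83 (85.6%) also had a ratio above 0 at 3 h, with a median there of 0.19. Of the 122 lower genes, 77 (63.1%) had a ratio below 0 at 3 h, with a median of -0.048. Past 1.5-fold, where 20 genes (0.198%) were higher and 4 (0.0395%) lower at 3 h, 4 higher genes were shared, among them Acta2 and Tagln, and 0 lower genes. Neither Ccl5 (0.22 at 3 h) nor Isg15 (0.13) was below PBS at 3 h. No test of the difference between the times was possible.

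**Figure D4:**
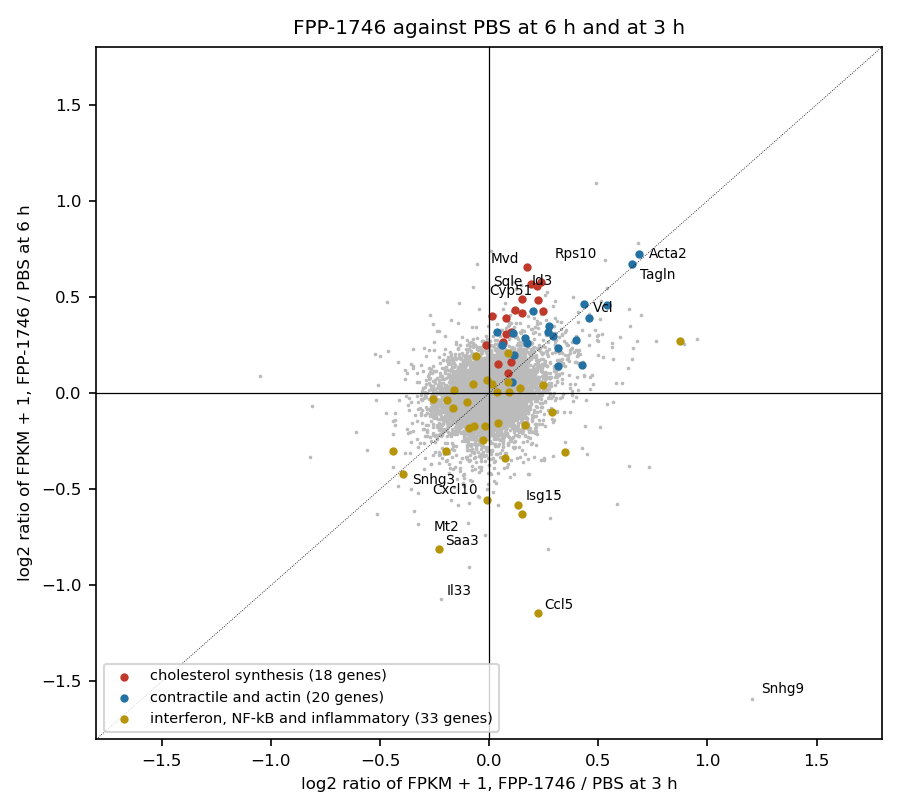
Log2 ratio of FPKM + 1 for FPP-1746 against PBS at 6 h (vertical axis) and at 3 h (horizontal axis), 1 point per gene outside small RNA records, LOC100302567 not drawn, with the line of equal ratios dotted. Contractile genes (blue) lie above 0 at both times, cholesterol genes (red) are higher at 6 h than at 3 h, and Ccl5 lies at -1.15 at 6 h and 0.22 at 3 h.

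Set directly against Omomyc at the same dose and time, FPP-1746 had 71 genes higher (0.701%) and 130 lower (1.28%) past 1.25-fold, with a standard deviation of 0.12. Past 2-fold, 1 gene (0.00988%) was higher, Lsm5 (0.831 FPKM with Omomyc, 3.34 with FPP-1746), and 2 (0.0198%) lower, Ccl5 (77.5 and 36.3 FPKM) and Tigit, an immune checkpoint receptor gene chosen after its value was seen (23.4 and 10.9 FPKM, with 14.0 FPKM in PBS). Some genes had FPP-1746 near PBS and Omomyc above it: Cd14 read 12.9 (PBS), 24.5 (Omomyc) and 13.3 FPKM (FPP-1746), and the orphan receptor gene Nr4a1 read 6.25, 10.8 and 6.68 FPKM. Others were lower than both, such as Isg15 (33.7, 34.0 and 22.2 FPKM) and Cxcl10 (3.44, 4.62 and 2.02 FPKM).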

How the data were processed

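RNA-seq of T11 cells was deposited by the authors as 1 table of FPKM values, the average of each of 8 groups of 3 samples, so the spread between replicates was not analysed here. The build was mm9 and the software Cuffnorm 2.2.1, Cufflinks 2.2.1, STAR 2.1.3 and bcl2fastq 2.17.1.14, per the submitters' processing notes. Their order and settings, the library scaling, the RNA selection and the use of strand are not given in the sources. Of 23235 rows 6794 were at 0 in every column, 25 had symbols turned into dates, and 4163 shared a locus with another row. Starts were shifted to count from 1, since 7165 of 20649 spans with a RefSeq symbol equalled the RefSeq span when counted from 0 and 456 when counted from 1.

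Log2 ratios of FPKM + 1 were computed in Python 3.11.15 with pandas 2.3.3 and numpy 2.4.6, and figures were drawn with matplotlib 3.10.9. Genes whose 8 columns averaged 1 FPKM or more entered, and calls were made at 2-fold, 1.5-fold and 1.25-fold. The counting of genes past each fold was checked on simulated data without noise, made from the PBS 6 h column. Such data return the changes put in by construction, so the check covers the counting only. Depth was read from the spacing of low values in 797 genes, of which 22 (FPP-1746) and 35 (PBS) lay in the range searched. That range largely sets the estimate, and columns averaged over replicates need not keep whole steps.

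Genes named were those past 2-fold, the 15 highest and 15 lowest ratios, the 10 highest and 10 lowest at a mean of at least 10 FPKM, up to 3 members per list with the largest ratios, Myc, Max, the cell type markers, and the 5 highest and 5 lowest small RNA records. Predicted genes were left out of the naming, and any other gene named was chosen after its values were seen. A few genes under this rule are not reported here. The comparison and the 37 lists were chosen with earlier results of these data known. The lists share some members. Alternatives were the pseudocount, the minimum level, the scaling and the PBS reference.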

Additional observations from a re-analysis of the deposited data

How the results depend on the processing

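No paired analysis was possible because each group is 1 averaged column with no replicate in it, and for the same reason no replicate could be left out. Quantile normalisation and median-ratio scaling moved no count by over 1.5 times and left the calls of named genes past 2-fold in place. At 1.25-fold, quantile normalisation gave 120 higher and 111 lower genes, beside 97 and 122. Other settings moved the counts of genes, given as higher and then lower. A minimum mean of 5 FPKM gave 13 and 20 genes past 2-fold with small RNA records in, 1 and 1 without them, and 5 and 4 past 1.5-fold, and 50 lower past 1.25-fold. A pseudocount of 0.1 FPKM gave 7 lower past 2-fold, 27 and 55 past 1.5-fold and 171 and 218 past 1.25-fold. A pseudocount of 5 FPKM gave 1 and 1, 4 and 3, and 45 and 26 at those folds. No filter on low values gave 5 lower past 2-fold. With the mean of both PBS columns as reference there was 1 higher gene past 2-fold, 15 and 25 past 1.5-fold, and 180 and 220 past 1.25-fold. Under that reference Ccl5 and Il33 no longer passed 2-fold, and the medians of the immediate-early (-0.16), integrated stress response (-0.12) and clock (-0.058) lists lay below 0. So did those of the MYC network (-0.077), metallothionein and zinc (-0.077), NRF2 and glutathione (-0.068), p53 target (-0.031) and endocytic coat (-0.0075) lists. The medians of mitosis (0.040) and DNA replication (0.0054) turned to above 0. Of the genes named, Thbs1 (-0.35) and Cyr61 (-0.13) lost their call and turned direction under that reference, Tigit moved to 0.0035, Slc30a1 moved to -1.06, and 54 of 97 higher and 61 of 122 lower calls at 1.25-fold were lost. The cause of these moves was not tested, apart from the smaller number of genes under a higher minimum. Depth limits genes of low level most, and the averaged columns leave every difference without a replicate check.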

Other observations

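Slc30a1, which encodes a zinc exporter, differed between the vehicle columns more than with the carrier. From 3 h to 6 h in PBS its log2 ratio of FPKM + 1 was -1.91. For FPP-1746 against PBS it was -0.023 at 3 h and 0.18 at 6 h. Against the mean of both PBS columns the 6 h ratio was -1.06, past 2-fold in the other direction. The fusion stood at 12.6 FPKM at 6 h. The locus of Slc30a1 is shared with another gene in the table. It is among the 3 members of the metallothionein and zinc list with the largest ratios, and its change in PBS was singled out after its values were seen.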
